A study of Mus musculus with 4 samples.

Results

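Annexins, proteins that bind acidic phospholipids in a calcium-dependent manner, were examined as the 8 genes Anxa1, Anxa2, Anxa3, Anxa4, Anxa5, Anxa6, Anxa7 and Anxa11. They were chosen by gene symbol, and all 8 were found among the 13903 genes of the deposited table. RNA from whole mouse liver was sequenced in 4 libraries, 1 for each condition, and each library held RNA of 3 mice pooled in equal parts. All mice carried the OGT-floxed allele on the C57BL/6J background and were fed the choline-deficient, ethionine-supplemented (CDE) diet, a model of liver injury. The virus AAV8-TBG-CRE gave the label OGT-KO and AAV8-TBG-eGFP the label control. TBG is a promoter active in hepatocytes, so Cre was directed to hepatocytes and not to other liver cells. Tissue was collected at the end of the diet (no recovery) or after 7 days of recovery, and the sources used here do not give the age of the mice. The comparisons ask how livers labelled OGT-KO and control differed at each time, and how each differed between the times.

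Annexins share a core that docks onto membranes when calcium rises and differ in their amino-terminal tails, which bind partner proteins. They take part in membrane repair, endocytosis, exocytosis and the linking of membranes to actin, and secreted annexin A1 acts on leukocytes through formyl peptide receptors. Annexin A5 is widely used as a probe of phosphatidylserine on dying cells, and annexin A2 forms a complex with S100A10 that binds plasminogen activators and plasminogen at the cell surface. In the liver, several annexins are made by bile duct, mesenchymal and immune cells as well as by hepatocytes.

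Levels are in CPM, the reads on a gene for every 1000000 reads on listed genes. The libraries held 19972699 to 22866431 such reads, and a level of 3 reads, taken as the floor, is 0.131 to 0.150 CPM. With 1 library in each condition there is no replicate error. Brackets give the reads and the exact Clopper-Pearson interval (95%), which covers counting error only, because reads copied by PCR are not independent molecules and the spread between mice is unknown. A gene was called higher or lower when log2(CPM + 1) differed by at least 2-fold between libraries, among the 8963 genes that averaged 10 CPM or more across the libraries. All 8 annexins passed that filter, although Anxa1 and Anxa3 passed through their levels in the OGT-KO-labelled libraries, since they were below 4 CPM in both control libraries. Where values for both times stand side by side, that with no recovery comes first. Differences on the log2(CPM + 1) scale understate the change of such low genes.

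The targeted gene went against its label at one of the times. Ogt was at 64.7 CPM in the control library and 55.3 CPM in the OGT-KO-labelled library with no recovery, but at 55.7 and 77.7 CPM after 7 days. The differences of -0.22 and 0.47 on the log2 scale were -0.93 and -0.20 under median-ratio scaling. That scaling levels the libraries by the median ratio over genes with reads in every library. Which exons the floxed allele loses is not given in the sources used here, and other liver cells keep the gene, so the whole-gene count is a limited check. The hepatocyte markers were abundant in every library, with summed levels over 7 of 7 genes of 73864 and 82811 CPM in the controls and 52565 and 63832 CPM in the OGT-KO-labelled libraries. Most of each sum came from Alb, so the sums say little of the other markers. With no recovery Alb was at 47845 CPM in the control and 41362 CPM in the OGT-KO-labelled library.

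The windows of 250 bases before the RefSeq transcription starts of Anxa2, Anxa1, Anxa5 and Anxa11 are shown because these genes span the range of responses described below, from the largest difference to the smallest. The choice was made with the levels known. Sequences are RefSeq's for the mouse build GRCm38.p6, and each is given 5′ to 3′ on the strand of its gene. The windows lie at chr9:69453433-69453682 on the plus strand for Anxa2, chr19:20390672-20390921 on the minus strand for Anxa1, chr3:36475888-36476137 on the minus strand for Anxa5 and chr14:25841905-25842154 on the plus strand for Anxa11. Capitals mark matches, on either strand, to the letters TATAAA for the core promoter motif named TATA box, TGANTCA for the factor AP-1 and GGAATG for the TEAD factors. The letters CCAAT were searched in the same way.
Anxa2: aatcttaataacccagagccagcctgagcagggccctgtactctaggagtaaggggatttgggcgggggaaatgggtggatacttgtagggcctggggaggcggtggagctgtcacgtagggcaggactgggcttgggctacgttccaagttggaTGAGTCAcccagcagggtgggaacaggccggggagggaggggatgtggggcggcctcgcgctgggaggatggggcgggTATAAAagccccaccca
Anxa1: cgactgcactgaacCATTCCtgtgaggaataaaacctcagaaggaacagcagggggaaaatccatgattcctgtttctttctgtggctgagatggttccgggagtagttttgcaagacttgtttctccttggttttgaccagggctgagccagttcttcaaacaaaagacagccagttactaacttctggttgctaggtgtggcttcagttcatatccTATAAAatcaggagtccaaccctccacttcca
Anxa5: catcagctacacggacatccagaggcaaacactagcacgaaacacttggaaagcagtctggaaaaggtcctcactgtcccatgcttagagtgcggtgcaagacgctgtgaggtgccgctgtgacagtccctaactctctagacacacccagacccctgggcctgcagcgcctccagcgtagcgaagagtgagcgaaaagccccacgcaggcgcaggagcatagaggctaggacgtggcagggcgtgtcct
Anxa11: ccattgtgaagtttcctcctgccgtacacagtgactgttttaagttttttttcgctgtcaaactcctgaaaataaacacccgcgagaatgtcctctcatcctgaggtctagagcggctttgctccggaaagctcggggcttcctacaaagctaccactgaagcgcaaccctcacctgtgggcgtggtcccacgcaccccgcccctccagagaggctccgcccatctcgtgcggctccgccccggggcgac

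The Anxa2 window held a TATA box letter match that began 17 bases before the start and an AP-1 match that began 95 bases before it. The Anxa1 window held a TATA box match 32 bases before the start and a TEAD match 236 bases before it. No match to any of these letters stood in the windows of Anxa5 and Anxa11. Of all 32851 RefSeq windows of this length in the same build, 12.4% held the TATA box letters, 6.75% the AP-1 letters, 12.6% the TEAD letters and 33.8% the CCAAT letters. The GC box letters GGGCGG, which are not capitalised, occurred 3 times in the Anxa2 window and 3 times in that of Anxa11, and 32.7% of all windows held them at least once. No match overlapped another. The windows also differed in CpG dinucleotides, with 9 in Anxa2, 2 in Anxa1, 13 in Anxa5 and 17 in Anxa11, against a median of 6 and quartiles of 2 and 16 over all windows. Windows were found for 6 members in all, and those of Anxa4 and Anxa7 (with a pair of starts each) held no match to the TATA, AP-1, TEAD or CCAAT letters. A letter match is a description of the sequence and not a binding site. The gene positions given below are GENCODE's and place some starts elsewhere. By them the whole Anxa1 window lay inside its gene. The ends of the Anxa2 and Anxa5 windows did too, the TATA box match of Anxa2 among them.

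With no recovery, all 8 annexins were higher in the OGT-KO-labelled library than in the control on the deposited scale, and 5 were called higher (Anxa1, Anxa2, Anxa3, Anxa4 and Anxa5). After 7 days 6 were called higher, with Anxa6 added. None was called lower at either time. Among all genes compared, 24.4% were called higher and 5.69% lower with no recovery, and 22.9% were called higher and 4.27% lower after 7 days. On the log2 scale the median difference over the annexins was 2.17 and 2.18 at the 2 times, against 0.51 and 0.48 for the median over all genes compared, a description in which Anxa1 and Anxa3 had to be high to be included.

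That upward shift of the median gene depended on how the libraries were scaled. Scaling by the median ratio moved the median of all genes compared by -0.70 with no recovery and -0.66 after 7 days. It left that median below zero, at -0.19 and -0.18, and upper-quartile scaling left it at 0.043 and 0.011. Differences from the median gene on the deposited scale are therefore given below beside the differences themselves. Under median-ratio scaling 10.4% of genes were called higher and 15.4% lower with no recovery, and 11.6% and 11.8% after 7 days, and the annexins called higher numbered 4 and 5. The 100 most abundant genes of each library took 42.8% and 45% of the reads in the controls and 34.1% and 34.3% in the OGT-KO-labelled libraries.

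**Figure D1:**
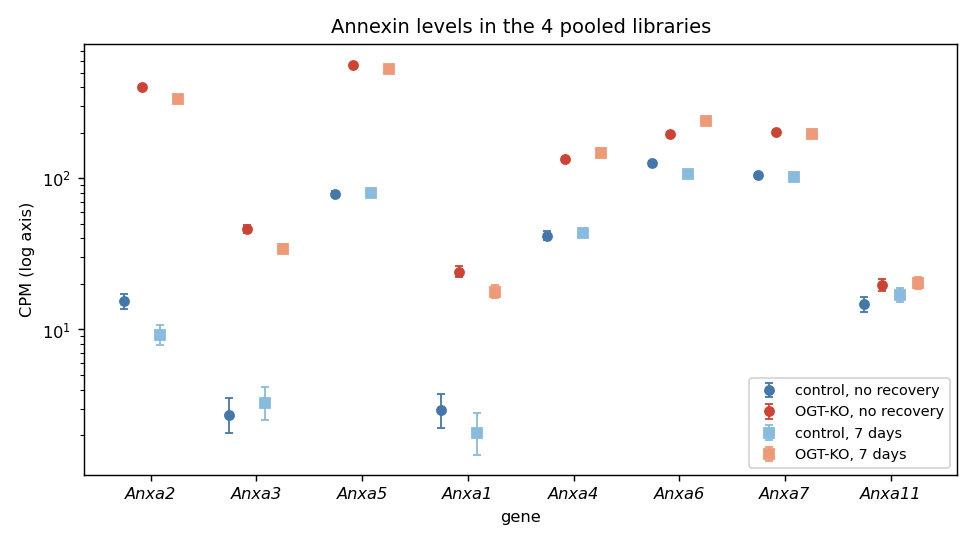
CPM of each annexin (log axis) in the 4 pooled libraries, with bars for the exact 95% counting interval of each library. Anxa2 stood at 15.3 and 9.21 CPM in the controls and 404 and 332 CPM in the OGT-KO-labelled libraries, while the 4 points of Anxa11 lay between 14.7 and 20.3 CPM.

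Anxa2 (ENSMUSG00000032231, plus strand of chromosome 9 from 69453620 to 69491795 in GRCm38), the annexin of the plasminogen-binding complex with S100A10, showed the largest difference of the family at both times. It was at 15.3 CPM in the control with no recovery (326 reads, 13.7 to 17.1), 404 CPM in the OGT-KO-labelled library with no recovery (9237 reads, 396 to 412), 9.21 CPM in the control after 7 days (184 reads, 7.93 to 10.6) and 332 CPM in the OGT-KO-labelled library after 7 days (7500 reads, 325 to 340). Both OGT-KO-labelled libraries were far above both controls, and no counting intervals met. The ratio was 26.3 with no recovery (23.6 to 29.5) and 36.1 after 7 days (31.2 to 42.0). On the log2 scale the difference was 4.63 and 5.03, which placed Anxa2 at rank 33 and rank 26 among the 8963 genes ordered from the most raised. It exceeded the median gene by 4.12 and 4.55, and it was 3.93 and 4.38 under median-ratio scaling.

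Anxa5 (ENSMUSG00000027712, minus strand of chromosome 3 from 36448923 to 36475894), whose protein binds exposed phosphatidylserine, was the annexin with the most reads in the OGT-KO-labelled libraries. It was at 79.0 CPM in the control (1679 reads, 75.2 to 82.9) and 564 CPM in the OGT-KO-labelled library (12906 reads, 555 to 574) with no recovery. After 7 days it was at 79.4 CPM (1585 reads, 75.5 to 83.4) and 531 CPM (11990 reads, 522 to 541). The controls were nearly equal at the 2 times, with intervals that met. The ratio was 7.15 with no recovery (6.79 to 7.52) and 6.69 after 7 days (6.35 to 7.06), on the log2 scale 2.82 and 2.73, or 2.31 and 2.25 above the median gene.

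Anxa1 (ENSMUSG00000024659, minus strand of chromosome 19 from 20373428 to 20390944), the annexin known for restraining neutrophil recruitment, was scarce in the controls. It was at 2.92 CPM in the control (62 reads, 2.24 to 3.74) and 24.1 CPM in the OGT-KO-labelled library (550 reads, 22.1 to 26.1) with no recovery, and at 2.05 CPM (41 reads, 1.47 to 2.78) and 17.8 CPM (402 reads, 16.1 to 19.6) after 7 days. The few control reads left its ratio wide, 8.25 with no recovery (6.33 to 10.9) and 8.68 after 7 days (6.28 to 12.3). Its log2 difference was 2.68 and 2.62, close to that of Anxa5 at both times.

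Anxa3 (ENSMUSG00000029484, plus strand of chromosome 5 from 96793339 to 96845966), an annexin abundant in neutrophils, ranked second to Anxa2 by its difference with the pseudocount of 1, though behind Anxa5 with one of 10. It was at 2.73 CPM in the control (58 reads, 2.07 to 3.53) and 46.3 CPM in the OGT-KO-labelled library (1058 reads, 43.5 to 49.1) with no recovery. After 7 days it was at 3.25 CPM (65 reads, 2.51 to 4.15) and 34.3 CPM (774 reads, 31.9 to 36.8). The ratio was 17 with no recovery (13.0 to 22.5) and 10.5 after 7 days (8.18 to 13.8). The difference was 3.66 and 3.05 on the log2 scale, at rank 120 and rank 357 of all genes compared.

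Anxa4 (ENSMUSG00000029994, minus strand of chromosome 6 from 86736840 to 86793584), an annexin abundant in secretory and ductal epithelia, was already well detected in the controls. It was at 41.7 CPM in the control (886 reads, 39.0 to 44.5) and 134 CPM in the OGT-KO-labelled library (3071 reads, 130 to 139) with no recovery, and at 43.6 CPM (871 reads, 40.8 to 46.6) and 147 CPM (3328 reads, 143 to 153) after 7 days. Its ratio was 3.22 (2.99 to 3.48) and 3.38 (3.14 to 3.65). The log2 difference was 1.66 with no recovery and 1.73 after 7 days, or 1.16 and 1.26 above the median gene. Under median-ratio scaling it was 0.95 with no recovery, just short of 2-fold, and 1.06 after 7 days.

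Anxa6, Anxa7 and Anxa11 lay nearest to the median gene. Anxa6 (ENSMUSG00000018340, minus strand of chromosome 11 from 54979108 to 55033445), a double-length annexin that acts in endosomal and cholesterol traffic, was at 126 CPM in the control (2679 reads, 121 to 131) and 196 CPM in the OGT-KO-labelled library (4473 reads, 190 to 201.4) with no recovery, and at 107 CPM (2136 reads, 102 to 112) and 239 CPM (5400 reads, 233 to 246) after 7 days. Its log2 difference was 0.63 and 1.15 at the 2 times, or 0.12 and 0.68 above the median gene, and under median-ratio scaling it turned to -0.085 with no recovery and stayed at 0.47 after 7 days. The call after 7 days was lost under median-ratio and under upper-quartile scaling, where the difference was 0.67.

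Anxa7 (ENSMUSG00000021814, minus strand of chromosome 14 from 20455260 to 20480133), an annexin that promotes membrane fusion, was at 105 CPM in the control (2223 reads, 100 to 109) and 202 CPM in the OGT-KO-labelled library (4621 reads, 196 to 208) with no recovery. After 7 days it was at 101 CPM (2027 reads, 97.1 to 106) and 197 CPM (4445 reads, 191 to 203). The ratio was 1.93 and 1.94, short of the 2-fold rule at both times. The log2 difference of 0.94 and 0.95 was 0.44 and 0.47 above that of the median gene.

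Anxa11 (ENSMUSG00000021866, plus strand of chromosome 14 from 25842156 to 25886804), an annexin that tethers RNA granules to lysosomes, differed least. It was at 14.7 CPM in the control (313 reads, 13.1 to 16.4) and 19.7 CPM in the OGT-KO-labelled library (450 reads, 17.9 to 21.6) with no recovery, and at 16.9 CPM (337 reads, 15.1 to 18.8) and 20.3 CPM (459 reads, 18.5 to 22.3) after 7 days. The intervals of the control and the OGT-KO-labelled library did not meet with no recovery and met after 7 days. The log2 difference was 0.40 and 0.26 on the deposited scale and -0.11 and -0.22 relative to the median gene. It was negative under median-ratio scaling (-0.28 and -0.40) and under upper-quartile scaling (-0.059 and -0.21). Exons of 4 members are overlapped by another annotated gene, on the opposite strand for Anxa2, Anxa4 and Anxa11 and on the same strand for Anxa3, and whether the counting used strand is not given in the sources used here.

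**Figure D2:**
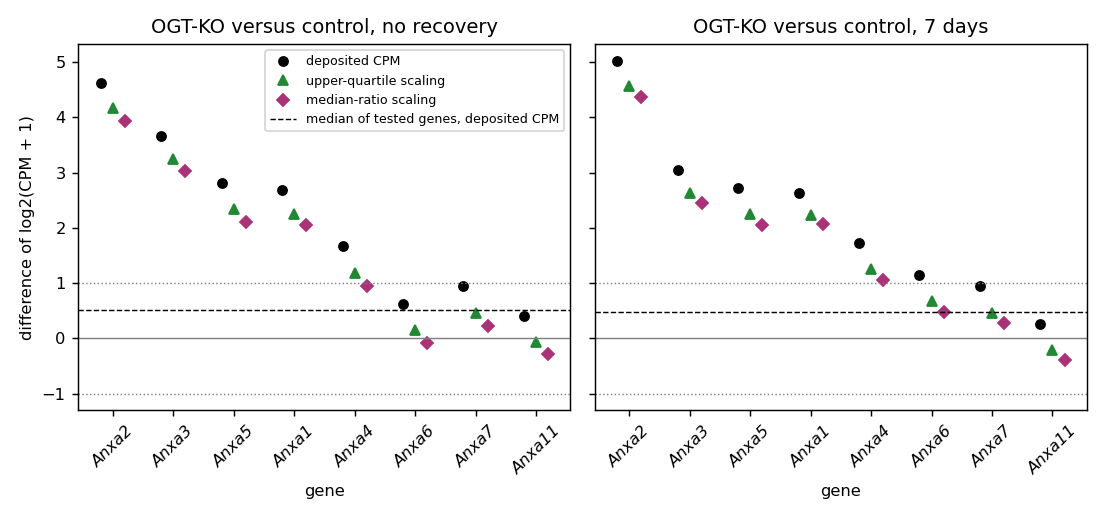
Difference in log2(CPM + 1) between the OGT-KO-labelled library and the control for each annexin, with no recovery (left) and after 7 days (right), on the deposited scale and under upper-quartile and median-ratio scaling; dotted lines mark 2-fold and the dashed line the median of all genes compared. Anxa2 stood at 4.63 and 5.03 on the deposited scale, and Anxa11 at 0.40 and 0.26 fell below zero under both other scalings.

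**Figure D3:**
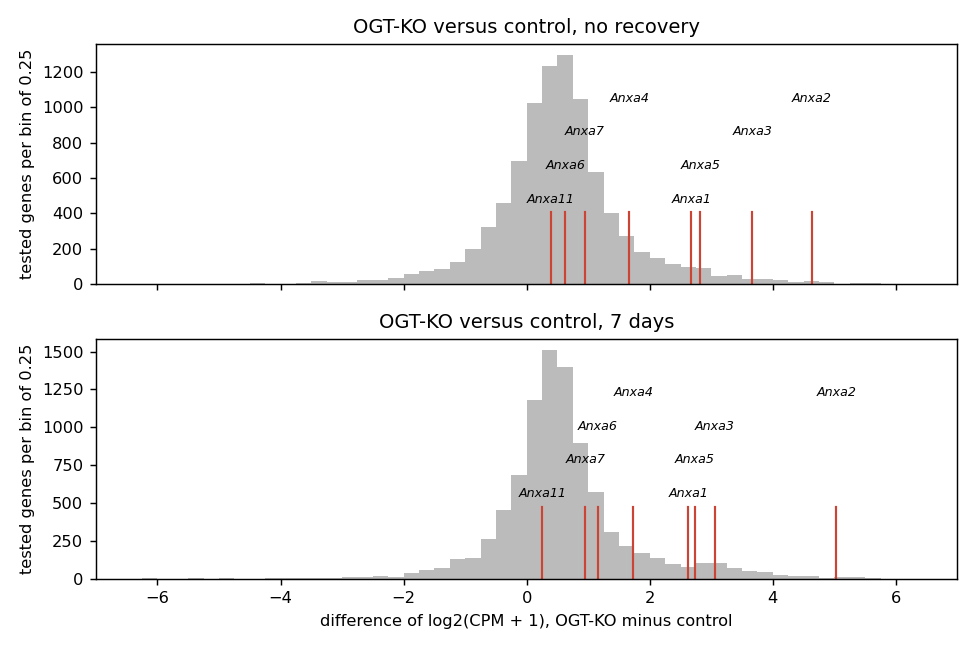
Histogram of the difference in log2(CPM + 1) between the OGT-KO-labelled library and the control over the genes compared, in bins of 0.25, with a red line at each annexin. The annexins ran from near the median gene (0.51 with no recovery and 0.48 after 7 days) out to Anxa2 in the upper tail.

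Anxa5 and Anxa2 made up most of the change in the family's RNA. The 8 genes summed to 387 CPM in the control and 1590 CPM in the OGT-KO-labelled library with no recovery, and to 363 and 1520 CPM after 7 days, ratios of 4.11 and 4.19. Anxa5 accounted for 40.3% and Anxa2 for 32.3% of the difference between those sums with no recovery, and for 39.1% and 27.9% after 7 days. Without these genes the other 6 summed to ratios of 2.13 and 2.39. The share of Anxa2 in annexin reads was 3.96% and 2.54% in the controls against 25.4% and 21.9% in the OGT-KO-labelled libraries. Anxa6, although its own CPM was higher there, took a smaller share of annexin reads in the OGT-KO-labelled libraries, with 32.6% and 29.5% in the controls against 12.3% and 15.7%.

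Levels of different annexins were compared per kilobase of exon (CPM per kb, over the union of annotated exons). In the control with no recovery Anxa5 was at 44.4 and Anxa6 at 43.0 CPM per kb, with intervals that met, and the order of this pair turned when the longest transcript was used as the length. Anxa7 followed at 17.5, Anxa4 at 8.97, Anxa2 at 4.11 and Anxa11 at 3.56, of which the last pair had intervals that met. Anxa1 at 1.0 and Anxa3 at 0.749 CPM per kb were lowest and could not be told apart by their intervals. In the OGT-KO-labelled library with no recovery Anxa2 stood second, at 108 CPM per kb behind Anxa5 at 318, whereas 4 annexins were above it in the control. There Anxa6 was at 66.8, Anxa7 at 33.7, Anxa4 at 28.9, Anxa3 at 12.7, Anxa1 at 8.26 and Anxa11 at 4.76 CPM per kb, and no neighbouring intervals met. Anxa11 thus stood below Anxa1 and Anxa3 in that library and above both in the control.

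After 7 days the order within each label was much as before. In the control Anxa5 at 44.7 CPM per kb was above Anxa6 at 36.5, followed by Anxa7 at 16.9, Anxa4 at 9.39, Anxa11 at 4.08 and Anxa2 at 2.47. Anxa3 at 0.893 and Anxa1 at 0.705 CPM per kb again had intervals that met. In the OGT-KO-labelled library the order was that seen with no recovery, from Anxa5 at 299 and Anxa2 at 89.1 through Anxa6 at 81.7 to Anxa11 at 4.92 CPM per kb. Anxa7 at 32.9 and Anxa4 at 31.7 CPM per kb were its only neighbours whose intervals met.

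No annexin was called in either recovery comparison, where 0.245% of genes were called higher and 0.96% lower in the controls, and 1.04% higher and 0.435% lower in the OGT-KO-labelled libraries. Anxa2 was lower after 7 days under both labels, at a ratio of 0.601 (0.499 to 0.722) in the controls and 0.823 (0.798 to 0.848) in the OGT-KO-labelled libraries. Anxa1 was at 0.704 (0.462 to 1.06) of its no-recovery level in the controls, an interval that held 1, and at 0.741 (0.650 to 0.844) in the OGT-KO-labelled libraries. After 7 days its level in the OGT-KO-labelled library was still above both controls, as were those of the other 7 annexins on the deposited scale.

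Anxa6 moved in opposite directions with recovery under the labels, a difference between labels that was not tested. It was at 0.849 (0.801 to 0.899) of its no-recovery level in the controls and 1.22 (1.18 to 1.27) in the OGT-KO-labelled libraries, and neither interval held 1. Anxa3 was at 1.19 (0.824 to 1.73) in the controls and 0.741 (0.675 to 0.814) in the OGT-KO-labelled libraries, and the control reads were too few to give it a direction. Anxa5 was at 1.0 (0.938 to 1.08) and 0.941 (0.918 to 0.965). Anxa4 was at 1.05 (0.952 to 1.15) and 1.10 (1.05 to 1.15), and Anxa11 at 1.15 (0.980 to 1.34) and 1.03 (0.906 to 1.18). Over the same times all 5 macrophage and monocyte markers that passed the filter, of 6 listed, were called lower in the controls. None was called lower in the OGT-KO-labelled libraries. Among all genes compared 0.96% were called lower in the controls and 0.435% in the OGT-KO-labelled libraries. The part of those cells in the annexin values was not tested. Anxa7 differed by -0.043 and -0.037 on the log2 scale, and its sign turned under upper-quartile scaling in both comparisons and under median-ratio scaling in the OGT-KO-labelled libraries.

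**Figure D4:**
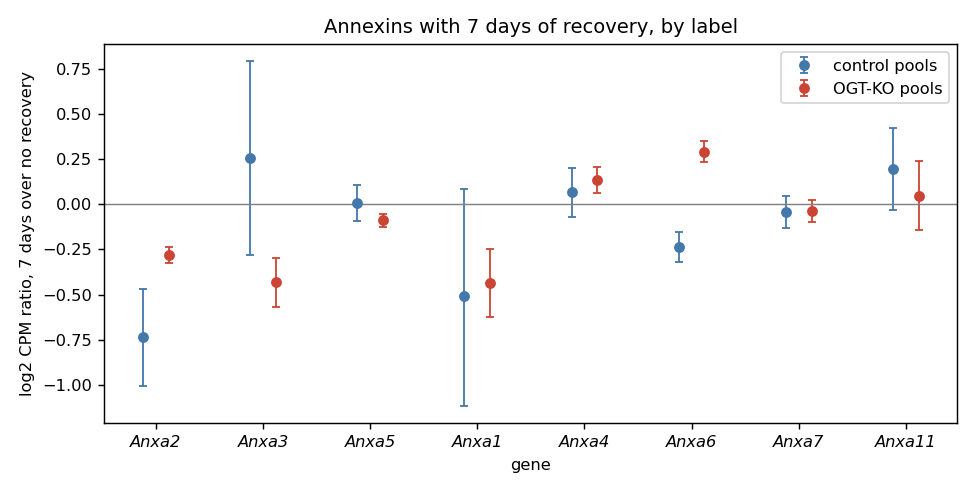
Log2 of the CPM ratio, 7 days over no recovery, for each annexin in the control pools and the pools labelled OGT-KO, with bars for the 95% counting interval. No annexin reached 2-fold under the call rule, and Anxa6 lay below a ratio of 1 in the control pools (0.849) and above 1 in the pools labelled OGT-KO (1.22).

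In RNA from whole liver, fewer cells of a type and less RNA per cell cannot be told apart, and markers of several other cell types were higher in the OGT-KO-labelled libraries too. Counts of called markers are to be read against the 24.4% and 22.9% of all genes called higher. Cholangiocyte markers (6 of 6 genes called higher at both times) summed to 54.1 and 70.7 CPM in the controls and 1164 and 1481 CPM in the OGT-KO-labelled libraries, most of it from Spp1. Of these 6, Krt7, Krt19, Epcam and Cldn7 were under 10 CPM in both controls and so passed the filter through the OGT-KO-labelled libraries, as did Acta2 and Des of the next list. Stellate cell and myofibroblast markers (8 of 8 called higher at both times) summed to 209 and 150 CPM in the controls and 3318 and 4094 CPM in the OGT-KO-labelled libraries, led by the collagen gene Col3a1 there. Macrophage and monocyte markers, of which 5 of 6 passed the filter and were called higher at both times, summed to 199 and 75.1 CPM against 823 and 680 CPM. Endothelial markers summed to 176 and 125 CPM against 317 and 231 CPM, with 3 of 6 called higher with no recovery and 1 of 6 after 7 days. Lyve1, 1 of the 3 called with no recovery, was under 10 CPM in both controls and passed the filter through the OGT-KO-labelled libraries. Under median-ratio scaling 1 of 6 endothelial markers was called higher at each time, beside 10.4% and 11.6% of all genes. With no recovery that marker was Lyve1. Kdr, Clec4g and Stab2 turned negative at both times.

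Rarer cells contributed few reads. Neutrophil markers (4 of 5 listed genes measured) summed to 5.50 and 2.20 CPM in the controls and 29.4 and 44.8 CPM in the OGT-KO-labelled libraries, T and NK markers (4 of 6) to 3.10 and 3.25 against 7.65 and 4.74 CPM, B cell markers (3 of 4) to 1.32 and 0.901 against 3.63 and 2.22 CPM, and mesothelial markers (3 of 3) to 4.28 and 3.76 against 7.08 and 14.1 CPM. Cd8a was at 0 reads in the control after 7 days, and every other measured marker had at least 1 read in every library. Of the hepatocyte markers none was called higher, and 3 of 7 were called lower with no recovery and 2 of 7 after 7 days. Among all genes compared 5.69% and 4.27% were called lower. Under upper-quartile scaling 4 and 3 of these 7 were called lower, beside 10.9% and 8.26% of all genes. Under median-ratio scaling 5 and 4 of these 7 were called lower, beside 15.4% and 11.8% of all genes. The part of these cell types in the annexin differences was not tested.

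The partners that bind annexin tails differed as unevenly as the annexins. S100a10, whose protein pairs with annexin A2, was at 88.9 and 75.7 CPM in the controls and 291 and 244 CPM in the OGT-KO-labelled libraries, a difference of 1.70 and 1.68 on the log2 scale. Its difference was smaller than that of Anxa2, so the ratio of Anxa2 CPM to S100a10 CPM was 0.172 and 0.122 in the controls and 1.39 and 1.36 in the OGT-KO-labelled libraries. Ahnak, a giant scaffold that the same complex binds, was at 19.4 and 18.8 CPM against 103 and 85.3 CPM (2.35 and 2.12 on the log2 scale).

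S100a11, a partner of annexin A1, was at 5.46 and 4.61 CPM in the controls and 145 and 125 CPM in the OGT-KO-labelled libraries, differences of 4.50 and 4.49 that exceeded those of Anxa1. The ratio of Anxa1 CPM to S100a11 CPM was 0.534 and 0.446 in the controls and 0.166 and 0.143 in the OGT-KO-labelled libraries. The receptors of annexin A1 were scarce, and both were under the filter. Fpr1 was at 1.65 and 0.551 CPM in the controls and 3.15 and 3.68 CPM in the OGT-KO-labelled libraries, and Fpr2 at 0.141 and 0.20 against 1.40 and 0.975 CPM.

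Sri encodes sorcin, an EF-hand partner of annexin A7, and Pdcd6 encodes ALG-2, a partner of annexin A11. Sri was at 26.8 and 30.4 CPM in the controls and 55.6 and 50.4 CPM in the OGT-KO-labelled libraries, and its ratio to Anxa7 varied little, with 3.90 and 3.34 Anxa7 reads for each Sri read in the controls and 3.64 and 3.91 in the OGT-KO-labelled libraries. Pdcd6 was at 49.5 and 57.9 CPM against 80.9 and 73.0 CPM, differences of 0.70 and 0.33, and was not called at either time. On the median-ratio scale its differences were -0.011 and -0.35. S100a6, a further partner of annexin A11, was at 1.36 and 1.05 CPM in the controls and 35.3 and 23.5 CPM in the OGT-KO-labelled libraries, differences of 3.94 and 3.58. Of the 5 EF-hand partners past the filter, 4 were called higher with no recovery and 3 after 7 days, the difference being Sri, beside 24.4% and 22.9% of all genes. Under median-ratio scaling 2 of 5 were called higher at each time, S100a11 and S100a6, beside 10.4% and 11.6% of all genes. Both genes were under 10 CPM in the controls and passed the filter through the OGT-KO-labelled libraries.

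**Figure D5:**
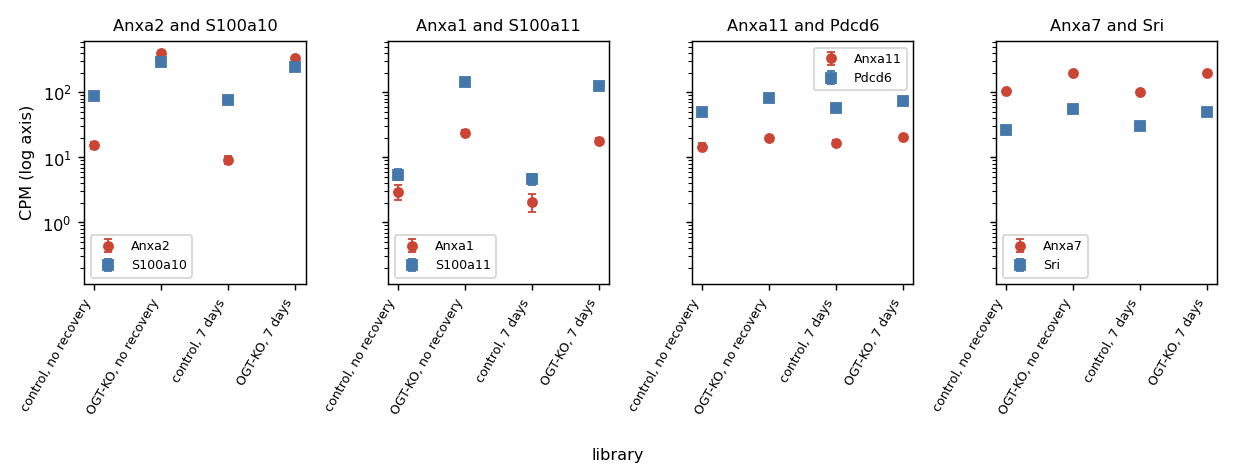
CPM (log axis) of an annexin and a protein partner's gene in the 4 pooled libraries, with bars for the 95% counting interval. Anxa2 lay below S100a10 in both controls (15.3 against 88.9 CPM with no recovery) and above it in both OGT-KO-labelled libraries (404 against 291 CPM with no recovery). The ratio of Anxa7 to Sri lay between 3.34 and 3.91. With recovery in the controls Sri differed by 0.17 on the log2 scale and Anxa7 by -0.043.

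Genes of processes in which annexins act were listed separately. Of 41 related genes 37 were measured and 26 passed the filter, and 13 were called higher and 2 lower at each time, where 24.4% and 22.9% of all genes were called higher and 5.69% and 4.27% lower. Of the 26, Dysf, Myof, Plat, S100a11 and S100a6 were under 10 CPM in both controls and passed through the OGT-KO-labelled libraries. Under median-ratio scaling 10 were called higher and 3 lower at each time. On that scale 10.4% and 11.6% of all genes were called higher and 15.4% and 11.8% lower. In the plasmin system, where annexin A2 serves as a receptor, 3 of 6 genes passed the filter. Plat, the tissue plasminogen activator, was at 0.423 and 0.300 CPM in the controls and 55.5 and 117 CPM in the OGT-KO-labelled libraries, and it was also called higher with recovery in the latter (1.06 on the log2 scale). Plg, the plasminogen gene of hepatocytes, was called lower at both times, from 2587 to 879 CPM with no recovery and from 2814 to 1192 CPM after 7 days. Serpinf2, the main inhibitor of plasmin, was at a difference of -1.0 at both times on the deposited scale, at the edge of the 2-fold rule. Under median-ratio scaling it was at -1.72 and -1.69.

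Among 10 membrane repair genes past the filter, 4 were called higher at both times and none lower. Among all genes 24.4% and 22.9% were called higher and 5.69% and 4.27% lower. Dysf and Myof, 2 of those 4, were under 10 CPM in both controls and passed the filter through the OGT-KO-labelled libraries. Under median-ratio scaling 3 were called higher, beside 10.4% and 11.6% of all genes, and Capns1 was at 0.59 and 0.45. Myof, which encodes the ferlin myoferlin, had the largest difference, at 2.40 and 2.10 CPM in the controls and 50.9 and 47.7 CPM in the OGT-KO-labelled libraries. Vps4a, an ATPase of the ESCRT machinery, had the smallest, at 0.23 and 0.17 on the log2 scale, or -0.28 and -0.30 relative to the median gene, and it was negative under median-ratio scaling (-0.46 and -0.49). Among 8 genes of phosphatidylserine exposure and clearance past the filter, 4 were called higher with no recovery and 5 after 7 days. None was called lower, and 24.4% and 22.9% of all genes were called higher. Under median-ratio scaling 4 were called higher and 1 lower at each time, beside 10.4% and 11.6% of all genes higher and 15.4% and 11.8% lower. Mfge8, whose protein bridges phosphatidylserine on dying cells to phagocytes, was at 9.08 and 12.6 CPM in the controls and 175 and 188 CPM in the OGT-KO-labelled libraries.

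The annexins also differed in how common their profiles were. Likeness was measured as the Euclidean distance between profiles of log2(CPM + 1) over the 4 libraries after each profile was centred on its mean. Anxa11 had 656 of the genes compared within a distance of 0.2, Anxa7 had 569, Anxa6 had 129 and Anxa4 had 49, whereas Anxa5 had 19, Anxa1 had 7, Anxa3 had 2 and Anxa2 had none. Profiles were not scaled for size, so these counts also reflect how large the difference between the labels was. The nearest genes to Anxa2 were the fibrillar collagen gene Col5a2 (distance 0.30) and Gm3776 (0.38), and those to Anxa5 were Myl9 (0.091) and G6pdx (0.10). Nearest to Anxa1 were Lilr4b (0.16) and Tnfrsf21 (0.16), and to Anxa3 Enc1 (0.16) and Ddit4l (0.17). Nearest to Anxa4 were Tor3a (0.028) and Mfsd10 (0.066), to Anxa6 Isg15 (0.044) and Ywhaq (0.053), to Anxa7 Wasf2 (0.021) and Eif2ak2 (0.031), and to Anxa11 Ccar1 (0.025) and Mlx (0.026). The genes named for Anxa1, Anxa2, Anxa3, Anxa4 and Anxa5, and Isg15, were under 10 CPM in both controls. They passed the filter through the OGT-KO-labelled libraries. Gm3776 was at 1.41 and 0.501 CPM in the controls, where the pseudocount of 1 shrinks differences. Within the family Anxa6 and Anxa7 were closest (0.27) and Anxa2 and Anxa11 farthest apart (4.55).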

How the data were processed

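RNA was isolated with TRIzol from liver, and mRNA libraries were sequenced, 1 library for each of 4 conditions and each from the pooled RNA of 3 mice. The authors deposited a table of CPM for 13903 genes. It is named for DESeq2 normalization, but each column sums to 1000000. The submitters' processing notes name STAR, DESeq2 and the build GRCm39, and versions and counting settings are not given in the sources used here. Whole reads were recovered from the CPM steps: 100% of values in every library lay within 0.1 read of a whole number. No column was left out.

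Groups came from the sample titles. Differences of log2(CPM + 1) were taken between pairs of libraries, and the 8963 genes that averaged 10 CPM or more were called at 2-fold. With 1 library in each condition, no p-value is given. As an alternative, an exact binomial test was run on the whole reads of a pair of libraries, with p-values adjusted by Benjamini-Hochberg; it says nothing of conditions. It called 8 of 8 annexins at both times between the labels, 2 with recovery in the controls and 6 in the OGT-KO-labelled libraries at an adjusted p of 0.05, and it called 8011, 7899, 3524 and 5048 of all genes in the same order. Other alternatives were pseudocounts of 0.1 and 10, no filter, a mean of at least 50 CPM, upper-quartile and median-ratio scaling, and the longest transcript as gene length. The designs had left the normalized unit open, and it turned out to be CPM.

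The annexins and the related and marker lists were chosen with earlier results of these data known. Named genes are the 8 members, their listed binding partners, the genes with the largest and smallest mean difference of each related list, the leading marker of a list, the 2 genes nearest to each member, and Ogt. One result under this rule is not reported here. Gene positions and lengths are from GENCODE M21 (GRCm38), in which 13899 identifiers were found, and coordinates of the authors' own build were not used. Promoter windows are from RefSeq (GRCm38.p6). Python 3.11.15 was used with numpy 2.4.6, pandas 2.3.3, scipy 1.17.1 and matplotlib 3.10.9.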

Additional observations from a re-analysis of the deposited data

Results flagged for a closer look

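The sign of the recovery difference was opposite between the labels for 3 annexins, and the differences between labels were not tested, since each label has 1 library at each time. For Anxa6 the counting intervals of both labels left out a ratio of 1, and for Anxa3 and Anxa5 the control interval held it. Anxa6 was lower after 7 days in the controls and higher in the OGT-KO-labelled libraries, and the change in the latter minus that in the former was 0.52 on the log2 scale. Anxa3 was at 0.19 in the controls and lower in the OGT-KO-labelled libraries, with a difference between the changes of -0.61, and its control level rested on 58 and 65 reads. Anxa5 was level in the controls, at 0.0068, and lower in the OGT-KO-labelled libraries, with a difference between the changes of -0.094.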

How the results depend on the processing

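Of 56 recomputed counts of called annexins, 42 were of counts reported as 0, which were 0 again and say little of stability. Of the other 14, 13 were within 1.5 times of the reported count, among them 4 in place of 6 called higher after 7 days with a mean of at least 50 CPM. The exception was the count called higher with no recovery, which was 3 in place of 5 among genes whose mean reached 50 CPM, because Anxa1 and Anxa3 leave that set. Anxa5 in the OGT-KO-labelled library with no recovery was at 326 CPM per kb of its longest transcript, against 318 per kb of exon. A pseudocount of 10 moved the differences between the labels of 5 of 8 annexins outside their counting intervals at each time. It put Anxa3 (2.14 and 1.74) below Anxa5 (2.69 and 2.60). Upper-quartile and median-ratio scaling each moved 8 of 8 at each time. With no recovery Anxa5 went from 2.82 to 2.34 and 2.11 under them. Signs turned under scaling alone: with no recovery Anxa6 was at -0.085 under median-ratio scaling, and Anxa11 at -0.28 under that scaling and -0.059 under upper-quartile scaling. After 7 days Anxa11 was at -0.40 and -0.21. With recovery, Anxa7 turned to 0.0083 in the controls under upper-quartile scaling and to 0.0095 and 0.036 in the OGT-KO-labelled libraries under upper-quartile and median-ratio scaling. Calls lost were Anxa4 with no recovery under median-ratio scaling and Anxa6 after 7 days under both scalings. Counts over all genes moved more: genes called higher with no recovery went from 2185 to 1208 under upper-quartile and 935 under median-ratio scaling, 1367 with a pseudocount of 10, 525 at a mean of at least 50 CPM and 4595 without a filter, and genes called lower from 510 to 981 and 1381 under the scalings. After 7 days genes called higher went from 2050 to 1215, 1038, 1344, 503 and 4492 under the same settings, and genes called lower from 383 to 740 and 1055. No paired analysis was possible because each comparison sets 1 pooled library against 1 other, and fewer than 2 replicate numbers are shared within it. A model that takes the times as replicates of the label was not fitted. Depth limits Anxa1 and Anxa3 in the controls, with 41 to 65 reads.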

Other observations

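Anxa8 and Anxa9, annexins outside the 8, were low in every library. Anxa9 was at 2.73 and 2.35 CPM in the controls (no recovery and 7 days) and 9.01 and 11.4 CPM in the OGT-KO-labelled libraries. Anxa8 was at 0.329 and 0.150 CPM in the controls, the latter being 3 reads, and at 1.71 and 0.709 CPM in the OGT-KO-labelled libraries. Both were under the filter, and Anxa10 and Anxa13 were not found by symbol among the genes of the deposited table. Of the phosphatidylserine list, Axl, which encodes a receptor of clearance, was called lower with recovery in the controls, from 23.0 to 10.6 CPM, and was named after its values were seen.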
